A study of Ixodes ricinus with 9 samples.

Results

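The acid peptidases described here are the cathepsins and related proteolytic enzymes of the tick midgut. They are the genes whose annotation in the deposited count table carries a Pfam domain of the papain family (PF00112), the eukaryotic aspartyl proteases (PF00026) or the serine carboxypeptidases (PF00450). The rule gave 51 of 28510 genes, of which 20 belong to the papain family, 4 to the aspartyl proteases and 27 to the serine carboxypeptidases. It used the annotation only and no measured value. RNA-seq was performed on midguts dissected on day 7 of artificial feeding on bovine blood from adult females of a laboratory colony of Ixodes ricinus, the castor bean tick. All ticks had been injected before feeding with double-stranded RNA, directed against antigen p23, against metalloprotease or, in the control group, against GFP, a jellyfish gene that ticks lack. Each group had 9 ticks in 3 pools of 3, and each pool gave 1 library, so p-values measure the spread between pools. RNA interference acts in the whole animal rather than in the midgut alone, and the study describes the metalloprotease knockdown as partial in midgut. Reads were aligned to the genome of the related tick I. persulcatus (assembly BIME_Iper_1.3), and the levels of both knockdown targets were not analysed here.

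Tick digestive cells take up blood proteins by endocytosis and break down haemoglobin inside acidic vesicles. In I. ricinus the first cuts are known to be made by aspartyl and cysteine endopeptidases such as cathepsin D, cathepsin L and legumain, and the fragments are trimmed by cathepsin B, dipeptidyl peptidase 1 (cathepsin C), serine carboxypeptidases and aminopeptidases. Most cathepsins are made as inactive precursors whose propeptide is removed in the acidic compartment.

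The label of acid endopeptidases fits only some of these genes. Serine carboxypeptidases and dipeptidyl peptidase 1 are exopeptidases, which shorten a protein from its end. The mammalian tubulointerstitial nephritis antigen-like protein is a matrix protein that has the papain fold without protease activity, and beta-secretase 2 is a membrane-bound protease. By best Swiss-Prot match, the papain family held 9 cathepsin B matches, 3 cathepsin L matches, 2 dipeptidyl peptidase 1 matches, 2 matches to a Dictyostelium protein named counting factor associated protein D, and 1 match each to cruzipain, cathepsin K, a Drosophila cysteine proteinase and the nephritis antigen-like protein. The aspartyl proteases matched cathepsin D, lysosomal aspartic protease (2 genes) and beta-secretase 2. Among the serine carboxypeptidases 11 matched CPVL, a human vitellogenic-like carboxypeptidase, 9 matched venom serine carboxypeptidases and 3 matched lysosomal protective protein, the mammalian cathepsin A.

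Library totals ranged from 3303358 to 9430607 counts, and 6294 to 10988 genes had at least 1 count. Antigen p23 replicates 1 and 2 had the fewest detected genes (7291 and 6294), against 9136 in antigen p23 replicate 3, 9589 to 10334 in the metalloprotease group and 9410 to 10988 in the GFP control group. Levels are given as CPM, the counts of a gene relative to the library total, on totals scaled with TMM, a method that corrects for differences in library composition, and its factors ran from 0.794 to 1.26. Midgut identity was checked with ferritin, peritrophin and legumain genes, of which 41 of 53 had counts, and their summed level was 7258 to 9046 CPM in antigen p23 libraries, 5039 to 7185 CPM in metalloprotease libraries and 5157.5 to 6876 CPM in GFP control libraries. Vitellogenin matches reached 16427 to 64590.2 CPM and all 5 muscle genes had counts (827 to 2987 CPM), while the 6 histamine-binding genes stayed at or below 1.21 CPM. Metalloprotease replicate 1 and GFP control replicate 2 had the lowest vitellogenin sums (16653.5 and 16427 CPM) and the lowest muscle sums (827 and 1379 CPM). In bulk midgut, fewer cells of a type and less RNA per cell cannot be told apart.

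Of the 51 acid peptidase genes, 32 had at least 1 count and 15 had counts in all 9 libraries. The 19 genes at 0 in every library were 6 of the papain family and 13 serine carboxypeptidases, or 37.3% of the members against 54.6% of all genes. A count of 0 of 39471733 allows up to 0.076 CPM over the pooled libraries, and 0.318 to 0.908 CPM in a single library, for counting error only. All 4 aspartyl proteases, all 3 cathepsin L matches and both dipeptidyl peptidase 1 matches had counts. By contrast 3 of 9 cathepsin B matches, 2 of 9 venom serine carboxypeptidase matches and 7 of 11 CPVL matches did. The 6 papain genes with an annotated I29 inhibitor propeptide, the type found in cathepsin L relatives, all had counts, and 2 of the 5 with the C1 propeptide of cathepsin B did.

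Members that lie on the same scaffold differed widely in level. Of 41 scaffolds with a member, 7 held at least 2, and 9 of the 17 genes on them had no count. On scaffold JABSTQ010010840.1, minus strand, the lysosomal protective protein match HPB47_005579 (bases 495142 to 523198) had 9141 counts over the 9 libraries, whereas its neighbours HPB47_005578 and HPB47_005580, with the same match, had 0 and 1. The most abundant cathepsin L match, HPB47_012847, starts at base 23 of its scaffold and had 36893 counts, against 111 for HPB47_012849, a second cathepsin L match 71253 bases further on. The sources used here do not say how reads that fit several similar genes were counted, and values of close relatives may share reads.

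The summed counts of the acid peptidases made up 0.149% to 0.331% of each library. The papain family took 58.6% to 80.0% of these counts, the serine carboxypeptidases 15.0% to 36.0% and the aspartyl proteases 2.60% to 9.85%. Within each class a pair of genes dominated. HPB47_012847 and the cruzipain match HPB47_009340 took 56.1% to 90.9% of papain family counts, the CPVL match HPB47_006822 and HPB47_005579 took 86.2% to 97.0% of serine carboxypeptidase counts, and the cathepsin D match HPB47_007140 and the lysosomal aspartic protease match HPB47_005210 took 90.9% to 100% of aspartyl protease counts.

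Among the 3 classes, the ratio between group means was largest for the serine carboxypeptidases. Their summed level was 662, 999 and 923 CPM with antigen p23 knockdown, 462, 310.0 and 700.5 CPM with metalloprotease knockdown, and 539, 309.8 and 398 CPM in GFP controls. The antigen p23 mean of 861 ± 177 CPM was 2.07 times the GFP control mean of 416 ± 116 CPM (SD, n = 3 each), and the groups did not overlap on TMM totals or on median-ratio size factors. On unscaled totals antigen p23 replicate 1 (524 CPM) lay below GFP control replicate 1 (537 CPM), so the separation depends on the scaling. The summed midgut markers were also higher in antigen p23 (7258 to 9046 CPM) than in GFP control libraries (5157.5 to 6876 CPM), without overlap under all 3 scalings. This sum includes the legumains, so it is not independent of the digestive proteases. On TMM totals the legumains alone summed to 1596 to 3350 CPM in antigen p23 and 1114 to 1526 CPM in GFP control libraries. The marker sum without them is not given here. Gene by gene, 8 of the 19 tested markers had a positive log2 fold change and 11 a negative one (median -0.21). The part of the markers in the class level was not tested.

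The aspartyl proteases summed to 157, 132 and 141 CPM with antigen p23 knockdown, 96.6, 103 and 81.2 CPM with metalloprotease knockdown and 88.1, 78.0 and 193 CPM in GFP controls. The antigen p23 libraries all lay above the metalloprotease libraries under all 3 scalings. On TMM totals the means differed 1.53 times (143 ± 12.6 and 93.7 ± 11.3 CPM, SD, n = 3 each), and on unscaled totals 1.32 times. GFP control replicate 3 was the highest library of all, and the GFP control group overlapped both knockdown groups.

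The papain family, the most abundant class, varied within every group. Its sums were 1599.6, 2298 and 1503 CPM with antigen p23 knockdown, 903, 1649.6 and 2342 CPM with metalloprotease knockdown and 1687, 817 and 1365 CPM in GFP controls, and all groups overlapped. The lowest sums were those of metalloprotease replicate 1 and GFP control replicate 2, the libraries that were also lowest in vitellogenin and muscle genes, whose part in the papain family level was not tested. No test was run on the class sums, since the genes were grouped with earlier results of these data known.

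**Figure D1:**
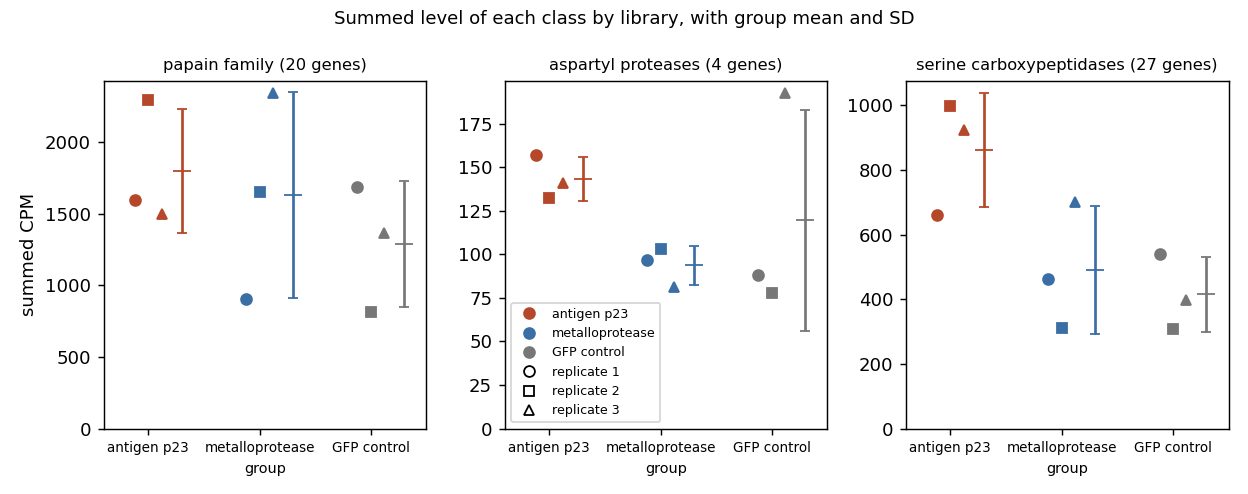
Summed CPM (linear axis from 0) of each class in the 9 libraries, with antigen p23, metalloprotease and GFP control from left to right; points are libraries, with a marker shape for each replicate number, and bars give the group mean and SD. The serine carboxypeptidase sums lie at 662 to 999 CPM in antigen p23 libraries and 310 to 539 CPM in GFP control libraries, and the papain family sums overlap in all groups.

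No acid peptidase passed an adjusted p of 0.05 in edgeR's quasi-likelihood test with Benjamini-Hochberg adjustment in any comparison. The test covered 17 members against GFP control in the antigen p23 group, 18 in the metalloprotease group and 16 between the knockdown groups, as the others fell under edgeR's filter on low counts. No gene of the whole table passed either (0% of 6381, 6786 and 6383 genes tested), and the adjusted p-values of the members ran from 0.964 to 0.994, were at 1, and ran from 0.998 to 0.999 in these comparisons. In antigen p23 over GFP control 1 of 17 members had an unadjusted p of 0.05 or less and was higher, and none was lower, against 1.55% of all genes higher and 1.71% lower. In metalloprotease over GFP control 0 of 18 members had such a p, against 0.737% of all genes higher and 0.693% lower. In antigen p23 over metalloprotease 3 of 16 were higher and none lower, against 1.05% and 1.52% of all genes.

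The median log2 fold change of the tested members was 0.57 in antigen p23 over GFP control, 0.18 in metalloprotease over GFP control and 0.28 in antigen p23 over metalloprotease, beside -0.10, 0.00 and -0.07 for all genes tested. Positive values were found for 12 of 17, 10 of 18 and 11 of 16 members, beside 2805 of 6381, 3354 of 6786 and 2862 of 6383 of all genes tested. The comparisons share libraries and are not independent of each other. In CPM, 2 tested members lay higher and 0 lower in antigen p23 than in GFP control libraries without overlap (5.20% and 6.24% of all genes tested). Of the untested members, HPB47_010782, HPB47_010692 and HPB47_022268 lay lower in antigen p23, also without overlap. These had few counts. The nearest libraries had 0 in antigen p23 against 1 in GFP control for HPB47_010782, and 2 against 3 for HPB47_010692. No share is given here for genes that were not tested. Between metalloprotease and GFP control 0 tested members were higher and 1 was lower (2.67% and 2.95% of all genes tested). The untested HPB47_022268 was also lower there. Between antigen p23 and metalloprotease 3 tested members were higher and 0 lower (3.59% and 5.11% of all genes tested). HPB47_005525, not tested in that comparison, was lower in antigen p23. On unscaled totals, an alternative chosen after seeing the data, the higher members numbered 1 in antigen p23 over GFP control and 2 in antigen p23 over metalloprotease. On median-ratio size factors, added at the same stage, they numbered 3 in each of these comparisons. The shares of all genes above are for TMM totals, and those under the other scalings are not given here.

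**Figure D2:**
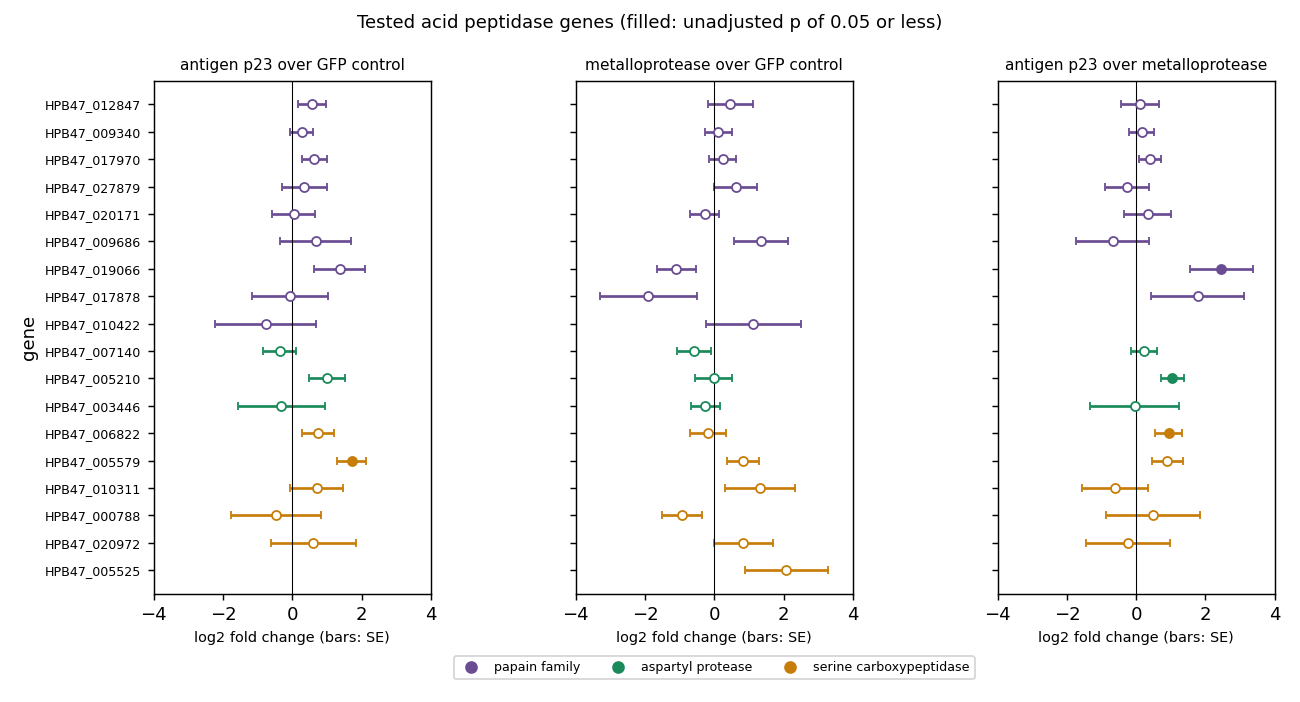
Log2 fold changes of every tested acid peptidase gene (rows, by class and then by total count) in the 3 comparisons (panels), with bars for the standard error and filled points for an unadjusted p of 0.05 or less. Only HPB47_005579 is filled in antigen p23 over GFP control (1.71), none in metalloprotease over GFP control, and HPB47_005210, HPB47_019066 and HPB47_006822 in antigen p23 over metalloprotease.

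Cathepsin L cleaves proteins internally at acidic pH. HPB47_012847, its most abundant match, was the acid peptidase gene with the highest level per length, with a mean of 979 CPM per kb of coding length over the 9 libraries and rank 164 of all genes. Its counts were 2925, 4179 and 2121 in antigen p23 libraries, 1210, 2712 and 15386 in metalloprotease libraries and 4313, 2183 and 1864 in GFP control libraries. These corresponded to 1015, 1241 and 672 CPM, to 270.0, 798 and 1663 CPM and to 1019, 376.5 and 587 CPM, so the metalloprotease group alone spanned 6.16-fold and held both the highest and the lowest library. The log2 fold change was 0.57 (SE 0.40) in antigen p23 and 0.46 (SE 0.65) in metalloprotease against GFP control.

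The cruzipain match HPB47_009340, named after the cathepsin L-like protease of Trypanosoma cruzi, averaged 376.5 CPM per kb and varied least among the abundant members. It had 324, 525 and 509 CPM with antigen p23 knockdown, 236, 514 and 465 CPM with metalloprotease knockdown and 367.5, 251 and 509 CPM in GFP controls, a 2.22-fold range over all libraries. Its log2 fold change was 0.27 (SE 0.34) for antigen p23 and 0.11 (SE 0.39) for metalloprotease against GFP control. Per kb, HPB47_012847 exceeded HPB47_009340 in every library, by 1.44 to 4.50 times.

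Dipeptidyl peptidase 1 removes dipeptides from the amino end of a protein. Its main match HPB47_017970, the only member with the annotated exclusion domain that gives this enzyme its exopeptidase action, had 206.5, 278 and 197 CPM in antigen p23 libraries, 237, 138 and 146 CPM in metalloprotease libraries and 217, 118.5 and 103 CPM in GFP control libraries. The groups overlapped, and its log2 fold change was 0.63 (SE 0.36) in antigen p23 and 0.25 (SE 0.39) in metalloprotease against GFP control. The nephritis antigen-like match HPB47_027879 ranged from 28.5 to 162 CPM with both extremes in the knockdown groups, and its log2 fold changes over GFP control were 0.35 (SE 0.66) in antigen p23 and 0.62 (SE 0.62) in metalloprotease. Leaving out 1 library moved them to between -0.34 and 1.15 and to between 0.14 and 1.43.

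Cathepsin B, which can act as both endopeptidase and exopeptidase, had few counts. The study warns that the I. persulcatus reference may make expression values inaccurate, and reads lost in alignment were not examined here. The 9 cathepsin B matches together had 253 counts and 0.649 to 19.6 CPM per library. HPB47_017878 carried most of them, with 8, 45 and 24 counts in antigen p23 libraries, 1, 22 and 4 in metalloprotease libraries and 80, 4 and 17 in GFP control libraries. GFP control replicate 1 alone was the highest, and the log2 fold change was -0.06 (SE 1.10) in antigen p23 and -1.91 (SE 1.40) in metalloprotease against GFP control. When 1 library was left out these values ran from -0.67 to 1.41 and from -4.50 to -0.37.

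Both matches to counting factor associated protein D were detected in all libraries. HPB47_020171 had 22, 90 and 34 counts in antigen p23, 34, 62 and 97 in metalloprotease and 61, 66 and 58 in GFP control libraries. HPB47_019066, annotated as a pseudogene, had 14, 69 and 40 counts in antigen p23, 14, 10 and 9 in metalloprotease and 20, 28 and 16 in GFP control libraries. In CPM its antigen p23 libraries (4.86, 20.5 and 12.7) all lay above the metalloprotease libraries (3.12, 2.94 and 0.973), with a log2 fold change of 2.45 (adjusted p = 0.998 in edgeR's test, SE 0.91). The metalloprotease libraries also lay below the GFP control libraries (4.72, 4.83 and 5.04 CPM), with a log2 fold change of -1.09 (SE 0.57). Without antigen p23 replicate 2, its highest library, the antigen p23 over metalloprotease value was 1.92 and its unadjusted p missed 0.05.

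**Figure D3:**
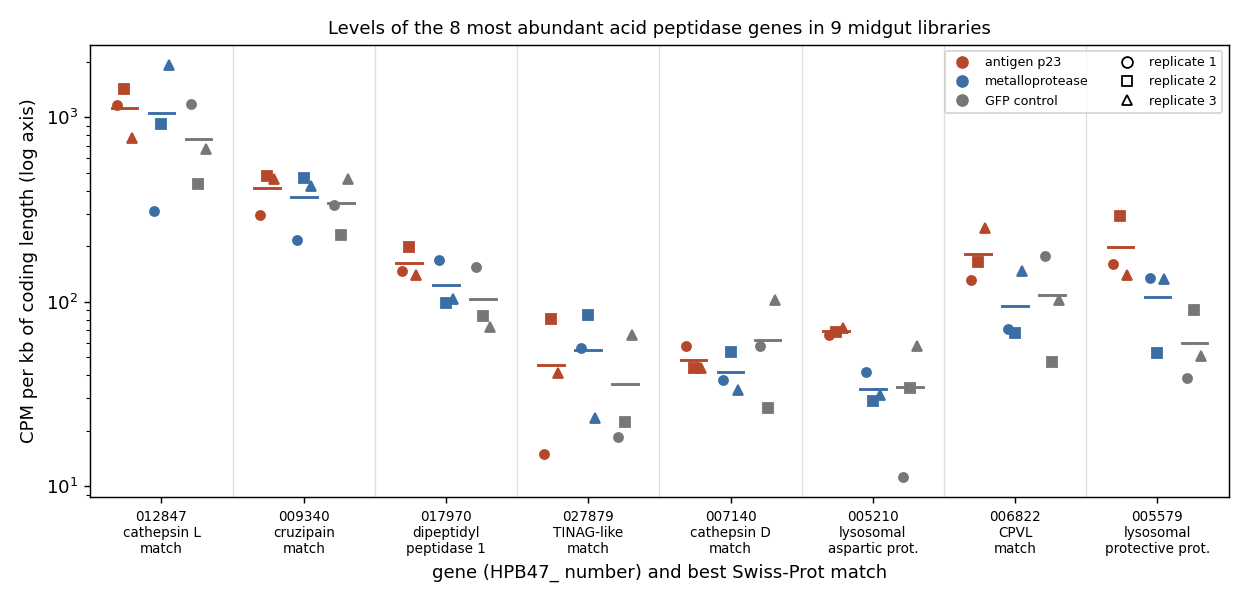
CPM per kb of coding length (log axis) of the 8 acid peptidase genes with the highest levels, in antigen p23, metalloprotease and GFP control libraries from left to right within each gene; points are libraries and lines are group means. The HPB47_012847 points span 6.16-fold within the metalloprotease group, and the HPB47_005579 points of antigen p23 all lie above those of GFP control.

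Cathepsin D is an aspartyl endopeptidase of lysosomes. Its match HPB47_007140 had 66.3, 50.5 and 50.1 CPM in antigen p23 libraries, 43.3, 61.8 and 38.3 CPM in metalloprotease libraries and 66.6, 30.5 and 118 CPM in GFP control libraries. The log2 fold change was -0.36 (SE 0.48) for antigen p23 and -0.58 (SE 0.49) for metalloprotease against GFP control, and the GFP control libraries contained both the lowest and the highest value. The other abundant gene of the class, HPB47_005210, is best matched by the lysosomal aspartic protease of the mosquito Aedes aegypti. It had 228, 275 and 272 counts in antigen p23, 221, 117 and 345 in metalloprotease and 57, 237 and 218 in GFP control libraries. Its antigen p23 levels were the most even of the 3 groups, at 79.2, 81.7 and 86.2 CPM, against 49.3, 34.4 and 37.3 CPM in metalloprotease and 13.5, 40.9 and 68.6 CPM in GFP control libraries. The log2 fold change was 1.04 (adjusted p = 0.998 in edgeR's test, SE 0.33) in antigen p23 over metalloprotease, where the groups did not overlap under any of the 3 scalings. Leaving out metalloprotease replicate 2 or 3 gave 0.93 and 0.95, and the unadjusted p then missed 0.05. Against GFP control it was 1.00 (SE 0.53) in antigen p23 and -0.02 (SE 0.54) in metalloprotease, and the antigen p23 and GFP control libraries overlapped on unscaled totals. Per kb, HPB47_007140 was at 0.602 to 0.868 times the level of HPB47_005210 in antigen p23 libraries, 0.910 to 1.86 times in metalloprotease and 0.774 to 5.13 times in GFP control libraries. The beta-secretase 2 match HPB47_003446 had 33, 0 and 14 counts in antigen p23 libraries, 17, 24 and 52 in metalloprotease and 29, 38 and 20 in GFP control libraries, and the last aspartyl protease, HPB47_015064, had 6 counts in all.

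Lysosomal protective protein is a serine carboxypeptidase that, in mammals, also stabilises lysosomal glycosidases. Its match HPB47_005579 (coding length 1923 bases) showed the smallest p of the acid peptidases. It had 887, 1897 and 850 counts in antigen p23 libraries, 1157, 345 and 2371 in metalloprotease libraries and 313, 1011 and 310 in GFP control libraries. These were 308, 563.5 and 269 CPM, 258, 101.5 and 256 CPM, and 73.9, 174 and 97.6 CPM. All antigen p23 libraries lay above all GFP control libraries under each of the 3 scalings, and they lay above the metalloprotease libraries except on unscaled totals. The log2 fold change was 1.71 in antigen p23 over GFP control (SE 0.43, 3.27-fold, adjusted p = 0.964 in edgeR's test), 0.83 in metalloprotease over GFP control (SE 0.47) and 0.90 in antigen p23 over metalloprotease (SE 0.44). Against GFP control the antigen p23 value stayed between 1.32 and 2.17 when any single library was left out. It was 1.24 without antigen p23 replicates 1 and 2, which leaves 1 antigen p23 library, so that the spread comes from the GFP control libraries alone and no test is read from it. Its adjusted p reached 0.0378 in edgeR when no filter on low counts was applied, and was 0.155 in DESeq2.

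The CPVL match HPB47_006822 had 323, 406 and 618 CPM in antigen p23 libraries, 176, 166 and 360.1 CPM in metalloprotease libraries and 436, 116 and 252 CPM in GFP control libraries. Its log2 fold change was 0.94 (adjusted p = 0.998 in edgeR's test, SE 0.39) in antigen p23 over metalloprotease, but the groups overlapped, and it was 0.64, with an unadjusted p above 0.05, without antigen p23 replicate 3. Against GFP control it was 0.74 (SE 0.46) in antigen p23 and -0.19 (SE 0.52) in metalloprotease. The balance within the class differed among libraries. Per kb, HPB47_006822 was at 0.564 to 1.80 times the level of HPB47_005579 in antigen p23, 0.533 to 1.28 times in metalloprotease and 0.522 to 4.61 times in GFP control libraries. A further CPVL match, HPB47_010311, had 622 counts (67.3 CPM) in metalloprotease replicate 3 and at most 29.1 CPM elsewhere, and HPB47_000788, also a CPVL match, had 50, 0 and 10 counts in antigen p23, 14, 20 and 53 in metalloprotease and 36, 23 and 51 in GFP control libraries.

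Several members with low counts were high in 1 library. These genes were picked after their values were seen. Of 26 members with at least 10 counts, 3 had more than 50% of their summed CPM in a single library. The cathepsin L match HPB47_012849 had 0, 80 and 3 counts in antigen p23 libraries, 1, 3 and 12 in metalloprotease and 1, 2 and 9 in GFP control libraries, so antigen p23 replicate 2 held 77.8% of its summed CPM. The same library was the highest for 8 of the 26 members and had 3349.8 CPM of legumain genes, against 950.2 to 1702.5 CPM in the other libraries. It also had the fewest detected genes (6294). The shares of all genes beside these member counts are not given here, so they are not read as particular to the acid peptidases. Metalloprotease replicate 1 held 82 of the 124 counts of the CPVL match HPB47_005525 and 88 of the 154 counts of the cathepsin K match HPB47_010422, or 66.6% and 56.0% of their summed CPM. It was also highest for the second dipeptidyl peptidase 1 match, HPB47_009686, with 85 counts against 5 to 37 elsewhere, and it was the library with the lowest muscle and cuticle gene sums (827 and 330.0 CPM), whose part was not tested.

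**Figure D4:**
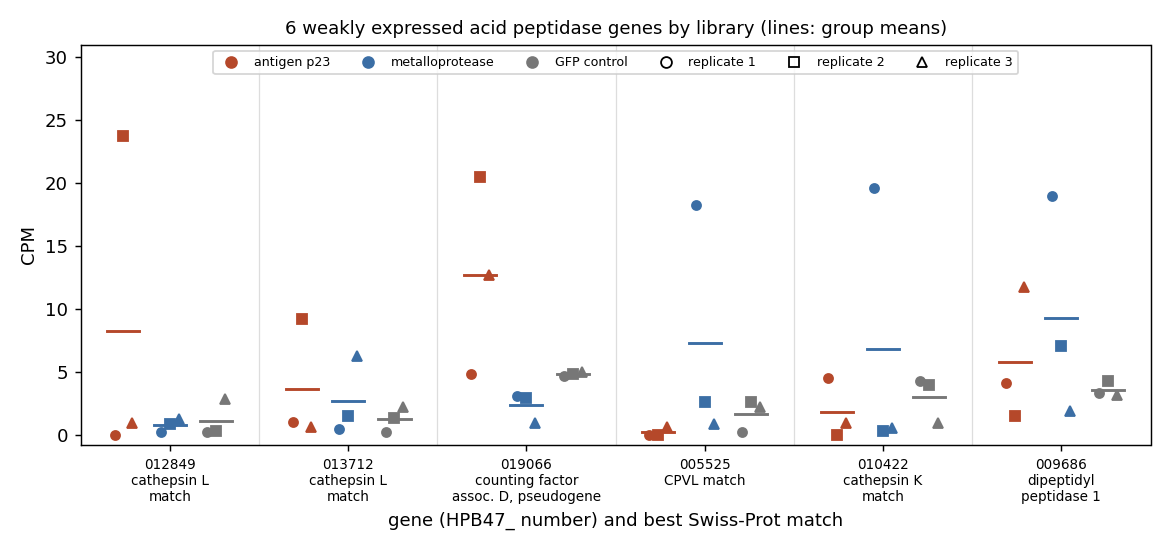
CPM (linear axis) of 6 acid peptidase genes with low counts, with antigen p23, metalloprotease and GFP control from left to right within each gene; points are libraries and lines are group means. A single library stands above the others for HPB47_012849 (antigen p23 replicate 2, 23.8 CPM), HPB47_005525 and HPB47_010422 (metalloprotease replicate 1, 18.3 and 19.6 CPM).

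Fewer acid peptidase genes were detected in antigen p23 libraries (19, 17 and 24) than in metalloprotease (28, 26 and 27) or GFP control libraries (27, 29 and 28). The same held for all genes, with 7291, 6294 and 9136 detected in antigen p23 libraries. Metalloprotease libraries had 10258, 9589 and 10334 and GFP control libraries 9473, 10988 and 9410, so the lower detection was not particular to the acid peptidases. Several of the members missing in antigen p23 libraries had few counts in any library. HPB47_022268, matched by a Drosophila cysteine proteinase, had 0 counts in all antigen p23 libraries, 1, 0 and 0 in metalloprotease and 6, 2 and 6 in GFP control libraries. With 0 set at 3 counts over the group it was at least 3.32-fold lower in antigen p23, and it was 18.2-fold lower in metalloprotease (95% Poisson interval 2.76 to 768, counting error only). The next 2 genes were picked after their values were seen. The vitellogenic carboxypeptidase match HPB47_010782 had 0 counts in antigen p23 libraries, 0, 2 and 22 in metalloprotease and 8, 9 and 1 in GFP control libraries, and was at least 4.27-fold lower in antigen p23 than in GFP control on the same floor. HPB47_005525 had 2 counts over the antigen p23 group and 23 over the GFP control group, an 8.19-fold lower level (95% Poisson interval 2.02 to 71.6), but its libraries overlapped, as antigen p23 libraries had 0, 0 and 2 counts and GFP control libraries had 1, 15 and 7. None of these 3 genes was tested in antigen p23 over GFP control.

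Other genes of the same digestive route were taken from lists of families. Legumain, an asparaginyl endopeptidase that also activates cathepsins, had 10 genes, of which 5 were tested and 2 reached an unadjusted p of 0.05 in antigen p23 over GFP control, both higher, beside 1.55% of all genes higher and 1.71% lower. HPB47_028387 had 1040, 176 and 209 counts in antigen p23, 108, 355 and 1840 in metalloprotease and 25, 43 and 172 in GFP control libraries, with a log2 fold change of 2.85 (adjusted p = 0.964 in edgeR's test, SE 1.02). HPB47_028388 had 1181, 7401 and 1736 counts in antigen p23, 1159, 2625 and 1547 in metalloprotease and 1678, 2425 and 1168 in GFP control libraries, with a log2 fold change of 1.41 (SE 0.58). The groups overlapped for both genes, which the study lists as upregulated after antigen p23 knockdown.

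The vacuolar ATPase, the proton pump that acidifies endosomes and lysosomes, had 20 subunit genes with 12 tested in antigen p23 over GFP control. Its subunit G match HPB47_014707 had 133, 182 and 96 counts in antigen p23, 93, 125 and 311 in metalloprotease and 85, 108 and 79 in GFP control libraries (log2 fold change 1.04, SE 0.42). For 3 of the 12 genes the antigen p23 libraries lay above the GFP control libraries, beside 5.20% of all genes tested. The metalloprotease libraries lay above the GFP control libraries for 3 of 13 tested genes, beside 2.67% of all genes tested. The summed level was 918 to 1469.8 CPM in antigen p23, 1022.5 to 1143 CPM in metalloprotease and 820.5 to 898.5 CPM in GFP control libraries, and on unscaled totals both knockdown groups overlapped the GFP control group.

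The cation-independent mannose-6-phosphate receptor carries newly made acid hydrolases to the lysosome in mammals. Its match HPB47_009913, the only tested gene of 4 sorting receptors, was lower in antigen p23 libraries (34.7, 55.6 and 62.4 CPM) than in metalloprotease (99.1, 103 and 104 CPM) and GFP control libraries (124, 74.2 and 98.2 CPM). The groups did not overlap in either comparison under any of the 3 scalings. On TMM totals 6.24% of all genes tested lay lower without overlap in antigen p23 over GFP control, and 5.11% in antigen p23 over metalloprotease. Its log2 fold change was -0.96 (adjusted p = 0.964 in edgeR's test, SE 0.37) against GFP control and -1.0 (adjusted p = 0.998 in edgeR's test, SE 0.34) against metalloprotease, which shares the antigen p23 libraries.

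The remaining lists held no gene with an unadjusted p of 0.05 or less in any comparison. Cystatins, which inhibit papain-type proteases, had 2 of 8 genes tested. Their summed level was 61.4 to 88.5 CPM in antigen p23, 35.7 to 231.2 CPM in metalloprotease and 40.0 to 93.8 CPM in GFP control libraries. The leucine aminopeptidases, which finish peptide breakdown, summed to 36.8 to 114 CPM in antigen p23, 64.3 to 121 CPM in metalloprotease and 51.6 to 140.1 CPM in GFP control libraries. The carboxypeptidases of family S28 had their lowest sums in metalloprotease replicate 1 (240.5 CPM) and GFP control replicate 2 (276.5 CPM), the same libraries in which the papain family was lowest. Both saposin genes together stayed at or below 46.0 CPM, and the single lysosome membrane protein match was not tested.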

How the data were processed

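Per the labels and the study's methods, the authors aligned cleaned midgut reads to the I. persulcatus genome BIME_Iper_1.3 by Bowtie2 2.5.3, and featureCounts was used to obtain the deposited table of raw counts (28510 genes, 9 libraries). For the strand setting and multi-mapping reads, the sources used here give no detail. Gene names are best Swiss-Prot matches. Lengths are coding lengths (97.9% are multiples of 3).

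Each pair of groups was fitted on its 6 libraries with edgeR 4.0.16 in R 4.3.3 (filterByExpr, TMM, robust quasi-likelihood F test, group as the only term), with Benjamini-Hochberg adjustment over all genes tested and a threshold of 0.05. Levels used TMM over all 9 libraries. DESeq2 1.42.0 was an alternative. Rescaling levels by median-ratio size factors or by raw totals was added after the data had been seen. The code was tested on simulated data. Antigen p23 replicates 1 and 2 were also left out together. Poisson intervals are 95% and a group at 0 was set at 3 counts.

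The members and lists were chosen with earlier results of these data known. Members named were those with the highest mean CPM per kb (8 of the papain family, 4 of each other class), those with an unadjusted p of 0.05 or less, the smallest p of each class and comparison, and HPB47_005579 and HPB47_022268. From DESeq2, the study lists HPB47_005579 as upregulated after antigen p23 knockdown and HPB47_022268 as downregulated after metalloprotease knockdown. In the main test here HPB47_005579 did not pass the adjusted threshold and HPB47_022268 was not tested. HPB47_012849, HPB47_005525, HPB47_010422, HPB47_010782 and HPB47_010692 fall outside this rule and were chosen after their values were seen, as were neighbours on shared scaffolds. For partner lists, up to 2 tested genes with the smallest p in antigen p23 over GFP control were named. No protein or promoter sequences were used here.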

Additional observations from a re-analysis of the deposited data

How the results depend on the processing

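No alternative changed the count of 0 acid peptidases past an adjusted p of 0.05, except that without a filter on low counts 1 passed in antigen p23 over GFP control (HPB47_005579). The number of all genes past it, 0 in each comparison, was 5 without the filter and 6 with DESeq2 in antigen p23 over GFP control. In antigen p23 over metalloprotease it was 16 without the filter, 1 with at least 10 counts in every library, 1 with the replicate block and 21 with DESeq2. Members with an unadjusted p of 0.05 or less in antigen p23 over GFP control numbered 4 without the filter, 2 with at least 10 counts, 2 with the replicate block and 1 to 4 when 1 library was left out. Metalloprotease over GFP control had 1 without the filter, 1 with DESeq2 and 0 to 3 when 1 library was left out. Antigen p23 over metalloprotease had 7 without the filter, 1 with all 9 libraries in 1 fit, 5 with DESeq2 and 1 to 3 when 1 library was left out. The shares of all genes with such a p under these alternatives are not given here. The member counts therefore cannot be read as more or fewer than in the whole table. The median of all genes moved to -0.45 without the filter and -0.44 with DESeq2 in antigen p23 over GFP control, and to -0.38 and -0.32 in antigen p23 over metalloprotease. On raw library totals the aspartyl protease mean of antigen p23 was 129 CPM. Neither the labels nor the study's methods say that replicate numbers pair the samples. Deviations of same-numbered libraries correlated between -0.474 and 0.103, which with 3 libraries per group does not settle whether they are paired.

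Of 45 log2 fold changes of named members, 25 kept their sign under every alternative. When 1 library was left out, the values in antigen p23 over GFP control ran from -0.34 to 1.15 for HPB47_027879, -0.71 to 0.19 for HPB47_007140, -0.67 to 0.35 for HPB47_020171, -2.57 to 0.13 for HPB47_000788, -0.36 to 1.13 for HPB47_009686, -1.57 to 0.27 for HPB47_003446 and -0.67 to 1.41 for HPB47_017878. In metalloprotease over GFP control they ran from -0.31 to 0.94 for HPB47_012847, -0.11 to 0.40 for HPB47_009340, -0.66 to 0.35 for HPB47_006822, -0.04 to 0.66 for HPB47_017970 and -0.44 to 0.59 for HPB47_005210. In antigen p23 over metalloprotease they ran from -0.34 to 0.86 for HPB47_012847, -0.12 to 0.37 for HPB47_009340, -0.96 to 0.20 for HPB47_027879, -1.14 to 0.65 for HPB47_010311, -0.39 to 0.73 for HPB47_020171, -1.64 to 1.07 for HPB47_000788, -1.70 to 0.37 for HPB47_009686 and -1.32 to 0.54 for HPB47_003446. With the replicate block the sign turned for HPB47_020171 (-0.16) and HPB47_017878 (0.56) in antigen p23 over GFP control, HPB47_005210 (0.20) in metalloprotease over GFP control, and HPB47_010311 (0.01) and HPB47_000788 (-0.87) in antigen p23 over metalloprotease. HPB47_005210 in metalloprotease over GFP control was also 0.01 with DESeq2 size factors and 0.02 with DESeq2. Without antigen p23 replicates 1 and 2 the value was -0.44 for HPB47_020171 over GFP control, and over metalloprotease -0.45 for HPB47_012847, -0.17 for HPB47_020171, -0.64 for HPB47_000788 and 0.36 for HPB47_009686. The causes were not tested.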
